A study of Mus musculus with 12 samples.

Results

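Germ cells and somatic cells of the newborn mouse testis were compared in animals that had received saline. The comparison took the 3 saline germ cell libraries and the 3 saline somatic cell libraries by their labels, which is 6 of the 12 libraries of the series, and was made across all genes with enough counts, 18870 of the 54532 genes in the count table. RNA was sequenced in bulk from cells sorted on postnatal day 1 (PN1). All animals carried the transgene Tg(Pou5f1-EGFP)2Mnn, in which a Pou5f1 (OCT4) promoter without its proximal enhancer drives green fluorescent protein (GFP), and no other allele was named. The saline groups were males whose dams were injected intraperitoneally at E17.5 and E18.5 and which were injected under the skin at PN0. GFP-positive cells made up the saline germ group and GFP-negative cells the saline somatic group, both without dead cells and doublets. The remaining 6 libraries came from animals dosed on the same days with dexamethasone (dex), a synthetic glucocorticoid, and enter only the last comparison. Testes from at least 2 litters were pooled in each replicate, per the study. The somatic group is a mixture of every GFP-negative cell of the testis, so a difference between the groups can come from any of its cell types, and in bulk RNA fewer cells of a type and less RNA per cell cannot be told apart.

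At birth the male germ cells are prospermatogonia, cells that lie in the centre of the testis cords, have paused dividing before birth and later give rise to spermatogonial stem cells. In this period they silence transposons through small RNAs bound by PIWI proteins (piRNAs) and write new DNA methylation, and they keep RNA-binding proteins of the germline such as DDX4 and DAZL. The cords are built by Sertoli cells, which secrete anti-Müllerian hormone and growth factors for germ cells, and are wrapped by contractile peritubular cells. Between the cords lie androgen-producing Leydig cells, stromal cells, vessels and macrophages.

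Total counts lay between 18459692 and 24718391 in the 6 libraries. A count of 0 allowed up to 3 counts, or 0.121 to 0.163 CPM (counts scaled to the library size), which covers counting error only. Saline germ libraries had a count in 26720 to 27247 genes and saline somatic libraries in 21671 to 23232 genes. Mitochondrial genes took 1.56% to 2.85% of the counts. No pair of libraries within a group agreed within sampling noise, so none was counted as a copy of another.

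Most genes differed between the populations. Of the 18870 genes tested with the quasi-likelihood test of edgeR, 14441 (76.5%) passed at a Benjamini-Hochberg adjusted p of 0.05, 7512 (39.8%) of them with the germ cells higher and 6929 (36.7%) with the somatic cells higher. Since most genes were called, each list is also described by a stricter test against a 2-fold difference, which 8500 genes (45.0%) passed, 4415 of them (23.4%) higher in germ cells and the other 4085 (21.6%) higher in somatic cells. The libraries of the groups did not overlap in 15039 genes (79.7%). Counts of genes called or not overlapping in the lists and classes below are read against these shares. Among the genes over 2-fold higher in germ cells, 1133 had at most 3 counts in every saline somatic library, and among those over 2-fold higher in somatic cells 294 had at most 3 counts in every saline germ library. Over all genes tested the median log2 fold change (germ minus somatic throughout) was 0.07, and it was 0.17 with the size factors of DESeq2 and 0.21 with library totals, so small differences are read against that shift. Levels below are the deposited FPKM (fragments per kilobase of gene, scaled to the library), given as mean ± SD over n = 3 libraries, and are the only scale on which genes are compared with each other. Each log2 fold change comes from the counts and stands with its standard error (SE) and the adjusted p of the edgeR test.

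The sort was checked on marker genes of both sides. Ddx4, an RNA helicase of germ cells, stood at 207, 206 and 193 FPKM in the saline germ libraries and at 0.544, 0.304 and 0.446 FPKM in the saline somatic libraries. Dazl, an RNA-binding protein of germ cells, stood at 327, 332 and 281 FPKM against 0.290, 0.480 and 0.267 FPKM. Both genes were far higher in every germ library than in any somatic library. Amh, the anti-Müllerian hormone of Sertoli cells, stood at 6.15, 8.60 and 7.29 FPKM in germ cells, and its somatic mean was 148-fold higher (log2 fold change −7.21, SE 0.14, adjusted p = 2.10e-12). Acta2, the smooth muscle actin of peritubular cells, stood at 1.72, 1.73 and 1.32 FPKM in germ cells against 467, 449 and 454 FPKM in somatic cells. The libraries of the groups did not overlap for any of these 4 genes, which also held for 79.7% of all genes tested, and the labels held in all 6 libraries.

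**Figure D1:**
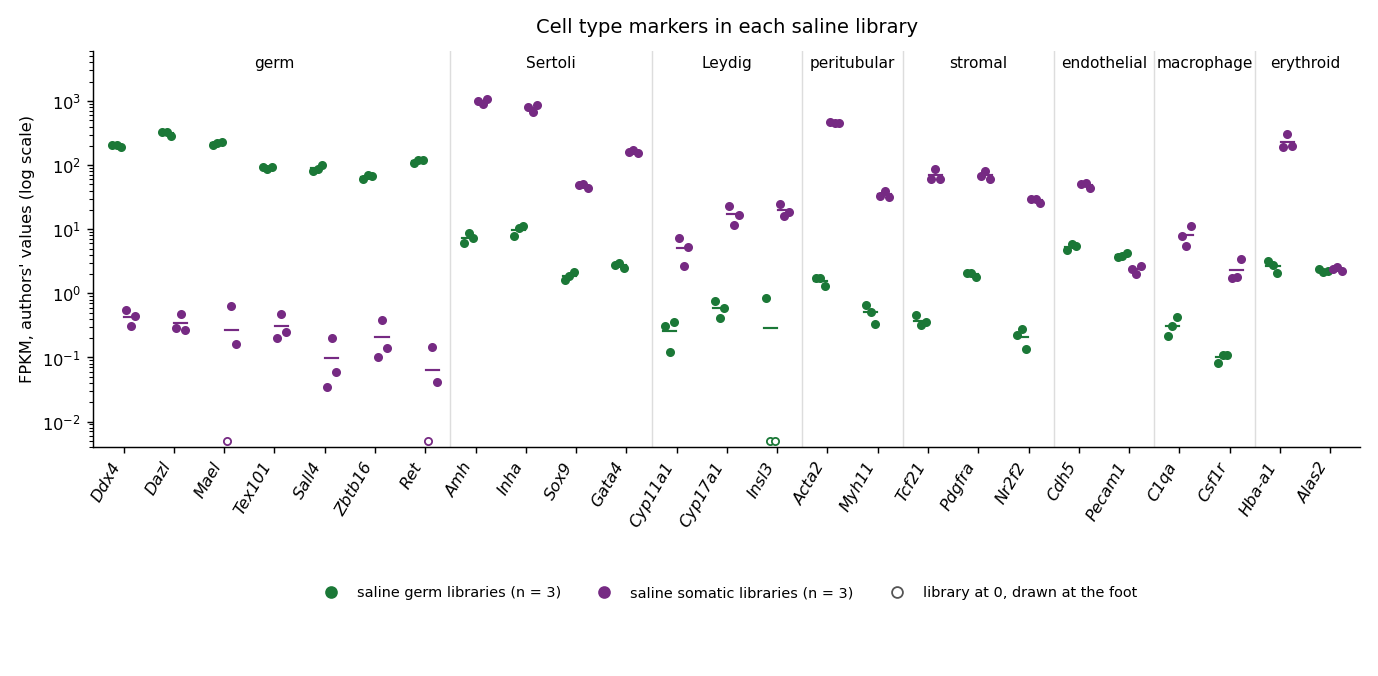
FPKM (log scale) of marker genes of 8 cell types in each saline library, with 1 filled circle a library (green for germ, purple for somatic, n = 3 each), bars at the means and open circles at the foot for libraries listed at 0. The germ markers Ddx4 and Dazl sit above 190 FPKM in all 3 germ libraries and below 1 FPKM in all 3 somatic libraries, Amh and Acta2 lie the other way round, and Pecam1 and Alas2 lie close together in both groups.

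Summed over whole marker lists, the residual signal differed between cell types. The 20 germ cell RNA regulators summed to 3280 to 3567 CPM in germ libraries and to 39.4 to 45.6 CPM in somatic libraries, so somatic cells held 1.24% of the germ level, and 2 of the 20 had no count in any somatic library. The 29 Sertoli genes summed to 185 to 198 CPM in germ libraries against 9715 to 10377 CPM in somatic libraries, which is 1.91%. The germ level was 2.38% of the somatic level for interstitial stromal genes, 3.26% for erythroid genes and 4.05% for peritubular genes. It was 17.2% for Leydig genes, 18.4% for macrophage genes and 33.8% for endothelial genes. These sums can rest on few members. The median germ level over the single genes was 3.51% of the somatic level for Leydig genes, 9.51% for macrophage genes and 37.2% for endothelial genes. Of the Leydig list, Scarb1, Gramd1b and Fdx1 held 89.6, 69.2 and 32.1 CPM of the germ sum of 216 CPM. The sum of the epithelium list was higher in germ cells, at 272% of the somatic level, through Krt7, Pax8 and Krt19, while its median over the single genes was 38.9%. The part of cells of the other population in any single difference was not tested.

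The germ cell RNA regulators, which control translation and stability of germline transcripts, were higher in germ cells as a whole. All 20 were called higher in germ cells and 19 passed the 2-fold test, against 39.8% and 23.4% of all genes tested. Their median log2 fold change was 6.54, or 6.27 with the genes at the floor set to their bound, and 3.80 on log2(FPKM + 1). Dnd1, a cofactor of NANOS proteins, reached 32.6 ± 5.61 FPKM in germ cells and 1.58 ± 0.330 FPKM in somatic cells. Nanos3, which protects migrating germ cells, stood at 26.2 ± 3.41 against 0.849 ± 0.484 FPKM. Nanos2, which holds male germ cells out of meiosis and maintains stem cells, was low, at 1.64, 2.41 and 1.63 FPKM, and had no count in somatic cells, which makes it at least 21.1-fold higher in germ cells. Of its exonic bases 49.0% are overlapped by a gene on the opposite strand that had no count. Elavl2, a neuronal-type RNA-binding protein, stood at 12.5 ± 1.24 FPKM against 0.386 ± 0.0850 FPKM. Rbm44, an RNA-binding protein of intercellular bridges, stood at 22.5, 22.1 and 20.3 FPKM with no count in any somatic library, at least 1007-fold higher.

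The most abundant germ cell transcripts were not those of the classical markers. Among the protein-coding genes over 2-fold higher with a log2 fold change of at least 5, the alpha-tubulins Tuba3a and Tuba3b came first, at 681 ± 1.84 and 582 ± 10.8 FPKM against 1.02 ± 0.369 and 0.653 ± 0.246 FPKM in somatic cells. Their transcripts share stretches with other genes (24.3% and 22.7% of their 64-base words occur elsewhere), so the split between the copies is uncertain. Dazl followed at 313 ± 28 FPKM, then Fkbp6, a chaperone of the piRNA pathway, at 226 ± 15.5 FPKM, Mael at 220 ± 11.1 FPKM and Ddx4 at 202 ± 7.74 FPKM. Egr4, a zinc finger transcription factor, stood at 178 ± 8.74 FPKM in germ cells and at 1.35 ± 0.611 FPKM in somatic cells. Tex19.1, which restrains retrotransposons, stood at 171 ± 14 FPKM, 1604-fold above the somatic level. Slc25a31, the ADP/ATP carrier of the testis, stood at 171 ± 1.25 FPKM. Taf7l, a germ cell paralogue of a subunit of the general transcription factor TFIID, stood at 158 ± 2.78 FPKM. Rpl10l, an autosomal copy of the X-linked ribosomal protein gene Rpl10, stood at 133, 134 and 138 FPKM and was at least 987-fold higher in germ cells.

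The genes of the piRNA pathway were higher in germ cells with one exception. Of 24 genes, 23 were over 2-fold higher in germ cells, against 23.4% of all genes tested, with a median log2 fold change of 6.71. The groups did not overlap for any of the 24, which also held for 79.7% of all genes tested. Of the PIWI proteins, which bind the small RNAs, Piwil2 was the highest at 127 ± 3.86 FPKM, and it had the highest somatic level too, at 2.65 ± 0.463 FPKM (log2 fold change 5.45, SE 0.13, adjusted p = 8.78e-12). Piwil4, the nuclear PIWI protein of prospermatogonia, stood at 13.6, 13.6 and 20.4 FPKM, so replicate 3 was the high one. Piwil1, the PIWI protein of later meiotic cells, stood at 7.0, 6.16 and 6.87 FPKM with no count in somatic cells, at least 208-fold higher. The helicase gene Mov10l1 stood at 93.2 ± 6.26 FPKM and the Tudor domain genes Tdrd1 and Tdrd9 at 59.3 ± 3.63 and 53.9 ± 5.29 FPKM, with somatic means below 0.2 FPKM for all 3. The exception was Mybl1, the transcription factor of pachytene piRNA clusters, which stood at 1.84, 1.88 and 1.60 FPKM in germ cells and at 4.96, 6.59 and 4.57 FPKM in somatic cells (log2 fold change −1.72, SE 0.18, adjusted p = 2.80e-06).

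Promoters of germ cell genes are shown because several of them hold the palindrome CACGTG, the word that MYC and MAX family proteins bind, and because MAX and MGA, which belong to a complex known to repress germline genes, were themselves measured. In the RefSeq promoter windows (GRCm38.p6, 250 bases before to 50 bases after the annotated start, both strands searched), CACGTG occurred in 7.24% of 27025 genes. It occurred in 9.88% of the 12100 windows found for the protein-coding genes tested and in 11.3% of the 2820 windows of those over 2-fold higher in germ cells, with windows for 78.6% and 78.3% of these genes. For genes over 2-fold higher in neither population it occurred in 10.5% of the 6617 windows, found for 80.3% of them. For genes over 2-fold higher in somatic cells it occurred in 6.87% of the 2663 windows, found for 75.0% of them. Among the meiosis genes it occurred in 7 of 29 windows (24.1%), those of Sycp1, Sycp3, Tex12, Stag3, Hormad1, Rec114 and Brdt. It also occurred in 7 of the 18 windows found for the piRNA pathway and in 6 of the 15 found for the RNA regulators. These lists are short and had windows for 75% of their genes, so no share is given. The shares of the larger classes above also rest on incomplete windows. A match is a description of the letters only. The windows of 6 genes are printed 5′ to 3′ on the strand of the gene with CACGTG in capitals.
Ddx4, chr13:112652261-112652560, minus strand, word 29 bases before the start: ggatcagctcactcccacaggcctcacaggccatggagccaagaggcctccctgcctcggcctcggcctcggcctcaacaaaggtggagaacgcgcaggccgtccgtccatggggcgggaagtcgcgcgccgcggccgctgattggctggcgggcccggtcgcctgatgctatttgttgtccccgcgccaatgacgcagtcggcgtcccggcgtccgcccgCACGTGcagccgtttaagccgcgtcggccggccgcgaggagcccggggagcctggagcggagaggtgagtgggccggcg
Mael, chr1:166238695-166238994, minus strand, word 223 bases before the start: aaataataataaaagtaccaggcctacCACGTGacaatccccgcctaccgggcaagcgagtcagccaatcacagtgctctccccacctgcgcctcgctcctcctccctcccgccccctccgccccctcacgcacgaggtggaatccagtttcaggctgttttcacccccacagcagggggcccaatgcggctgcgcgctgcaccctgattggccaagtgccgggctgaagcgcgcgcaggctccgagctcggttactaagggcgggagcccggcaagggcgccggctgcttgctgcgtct
Tdrd1, chr19:56825959-56826258, plus strand, word 11 bases before the start: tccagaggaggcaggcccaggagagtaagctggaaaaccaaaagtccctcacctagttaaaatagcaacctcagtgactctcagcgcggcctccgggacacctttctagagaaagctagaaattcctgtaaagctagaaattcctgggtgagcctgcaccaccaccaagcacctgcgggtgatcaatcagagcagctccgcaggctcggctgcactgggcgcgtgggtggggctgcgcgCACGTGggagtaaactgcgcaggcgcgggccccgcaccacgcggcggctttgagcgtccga
Fkbp6, chr5:135349995-135350294, minus strand, words 101 and 37 bases before the start: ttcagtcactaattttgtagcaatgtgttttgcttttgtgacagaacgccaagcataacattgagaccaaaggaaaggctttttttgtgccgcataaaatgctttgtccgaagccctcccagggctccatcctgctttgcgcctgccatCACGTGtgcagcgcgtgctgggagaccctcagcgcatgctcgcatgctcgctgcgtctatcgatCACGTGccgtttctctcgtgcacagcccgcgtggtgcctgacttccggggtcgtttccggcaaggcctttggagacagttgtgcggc
Sycp1, chr3:102936051-102936350, minus strand, word 94 bases before the start: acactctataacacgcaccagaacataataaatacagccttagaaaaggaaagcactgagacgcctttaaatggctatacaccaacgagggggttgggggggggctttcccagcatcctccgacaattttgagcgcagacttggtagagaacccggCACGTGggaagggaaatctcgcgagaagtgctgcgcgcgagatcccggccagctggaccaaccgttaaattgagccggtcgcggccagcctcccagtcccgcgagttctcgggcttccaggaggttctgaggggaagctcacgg
Sycp3, chr10:88459337-88459636, plus strand, words 64 and 43 bases before the start: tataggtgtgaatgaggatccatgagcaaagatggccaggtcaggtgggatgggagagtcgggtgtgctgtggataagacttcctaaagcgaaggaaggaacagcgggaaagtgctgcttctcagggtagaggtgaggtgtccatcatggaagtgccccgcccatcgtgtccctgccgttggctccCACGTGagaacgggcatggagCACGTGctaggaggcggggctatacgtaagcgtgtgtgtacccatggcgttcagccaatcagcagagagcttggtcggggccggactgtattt

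The 14 germline gene repressors, chromatin proteins that keep germline genes silent in other cells, differed less than the genes above. In this list 10 were called higher in germ cells and 2 in somatic cells, but only 4 passed the 2-fold test, all higher in germ cells, and the median log2 fold change was 0.71. Mga stood at 19.6, 22.5 and 17.4 FPKM in germ cells against 7.33, 7.99 and 6.89 FPKM in somatic cells (log2 fold change 1.30, SE 0.11, adjusted p = 3.47e-07). Its partner Max was called at a log2 fold change of 0.61 (SE 0.09) but did not pass the 2-fold test. Pcgf6, a subunit of the same complex, stood at 36.5 ± 2.64 against 8.82 ± 1.04 FPKM. The libraries of the groups did not overlap for any of these 3 genes, which also held for 79.7% of all genes tested.

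Meiosis genes were high in the newborn germ cells, although meiosis itself begins only after birth in the male. Of 35 genes 28 were over 2-fold higher in germ cells and none in somatic cells, with a median log2 fold change of 6.03 (5.71 with bounds). The median was 2.02 with at least 10 counts in every library and 2.96 on log2(FPKM + 1), a scale that understates the change of low genes. Stra8, the gene that retinoic acid induces before meiosis, stood at 62.8, 52.3 and 37.1 FPKM in germ cells, a wide spread, and at 0, 0.111 and 0.0257 FPKM in somatic cells. The cohesin subunits Stag3 and Smc1b reached 79.3 ± 2.79 and 60.6 ± 6.25 FPKM, while Rec8, the kleisin of the same complex, reached 10.5 ± 1.02 FPKM. The synaptonemal complex genes Sycp1 and Sycp3 stood at 41.1 ± 5.41 and 32.4 ± 1.69 FPKM, and 52.2% of the exonic bases of Sycp3 are overlapped by Chpt1 on the opposite strand. Dmc1, the strand exchange protein of recombination, stood at 17.0 ± 1.15 FPKM against 0.993 ± 0.283 FPKM. Spo11, which makes the meiotic breaks, stood at 4.31, 3.11 and 4.04 FPKM and was at least 107-fold higher in germ cells. Prdm9, which sets the positions of those breaks, had a level of 0.795 ± 0.0604 FPKM in germ cells and of 0.731 ± 0.193 FPKM in somatic cells, with overlapping groups (log2 fold change −0.01, SE 0.31, adjusted p = 0.972).

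Genes of prospermatogonia and stem cells were higher in germ cells in 37 of 38 cases, and 34 passed the 2-fold test, with a median log2 fold change of 5.84 (5.58 with bounds). The receptor Gfra1 and its signalling partner Ret, through which GDNF maintains stem cells, stood at 68.0 ± 7.41 and 115 ± 7.62 FPKM in germ cells and at 0.114 ± 0.0359 and 0.0629 ± 0.0761 FPKM in somatic cells. The transcription factors Zbtb16 (PLZF), Sall4 and Id4 stood at 65.9 ± 5.31, 89.7 ± 10.2 and 33.6 ± 3.95 FPKM. Morc1, an ATPase needed for transposon silencing, stood at 34.6 ± 0.712 FPKM and 965-fold above the somatic level. Dmrt1, a transcription factor known in both germ and Sertoli cells, differed far less, at 133, 152 and 143 FPKM in germ cells against 44.5, 43.9 and 44.4 FPKM in somatic cells. Foxo1, a marker of prospermatogonia and stem cells, stood at 24.7 ± 1.55 against 4.36 ± 0.374 FPKM. Kit, the receptor that marks differentiating spermatogonia, was present at 12.9 ± 0.694 FPKM, 11.5-fold above the somatic level.

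The pluripotency list split. Of 23 genes 18 had enough counts, 13 were over 2-fold higher in germ cells and 2 over 2-fold higher in somatic cells. Pou5f1 drives the reporter on which the cells were sorted, so its 39.3 ± 2.13 FPKM in germ cells against 0.0818 ± 0.0799 FPKM in somatic cells is no finding. Sox2 stood at 12.5, 10.7 and 14.6 FPKM in germ cells with no count in any somatic library, at least 185-fold higher. Dppa4, a chromatin protein of pluripotent and germ cells, stood at 51.8, 51.7 and 70.8 FPKM against at most 0.145 FPKM in somatic cells. Trim71, which binds RNA in stem cells, stood at 64.8 ± 5.14 FPKM in germ cells and was 1191-fold higher there. Nanog, the pluripotency factor of the epiblast and early germ cells, did not reach the count filter, with at most 0.166 FPKM in a germ library and 0.227 FPKM in a somatic library. Klf4 and Klf2, Krüppel-like factors, were the members higher in somatic cells. Klf4 stood at 21.2, 21 and 23.5 FPKM in germ cells against 64.1, 56.0 and 61.6 FPKM, and Klf2 varied from 35.4 to 127 FPKM between somatic libraries.

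DNA methylation enzymes went in both directions. Of 13 genes tested, 6 were over 2-fold higher in germ cells and 3 over 2-fold higher in somatic cells, against 23.4% and 21.6% of all genes tested. The median log2 fold change of 0.19 was close to that of all genes. The maintenance methyltransferase Dnmt1 stood at 116 ± 3.18 against 32.4 ± 1.12 FPKM, and its partner Uhrf1 at 141 ± 2.99 against 44.7 ± 1.83 FPKM. The de novo enzyme Dnmt3b stood at 25.2 ± 2.03 against 3.60 ± 0.270 FPKM. Its cofactor Dnmt3l stood at 4.40, 4.68 and 8.18 FPKM in germ cells, where replicate 3 was again high, and at 0.0510 ± 0.0572 FPKM in somatic cells. Dnmt3a, the other de novo enzyme, had 19.1 ± 1.47 FPKM in germ cells and 15.3 ± 1.35 FPKM in somatic cells and did not pass the test (log2 fold change 0.19, SE 0.09, adjusted p = 0.0764). The oxidising enzymes Tet1, Tet2 and Tet3 were all over 2-fold higher in somatic cells, with Tet3 the most abundant at 4.22 ± 0.110 against 9.47 ± 1.00 FPKM.

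**Figure D2:**
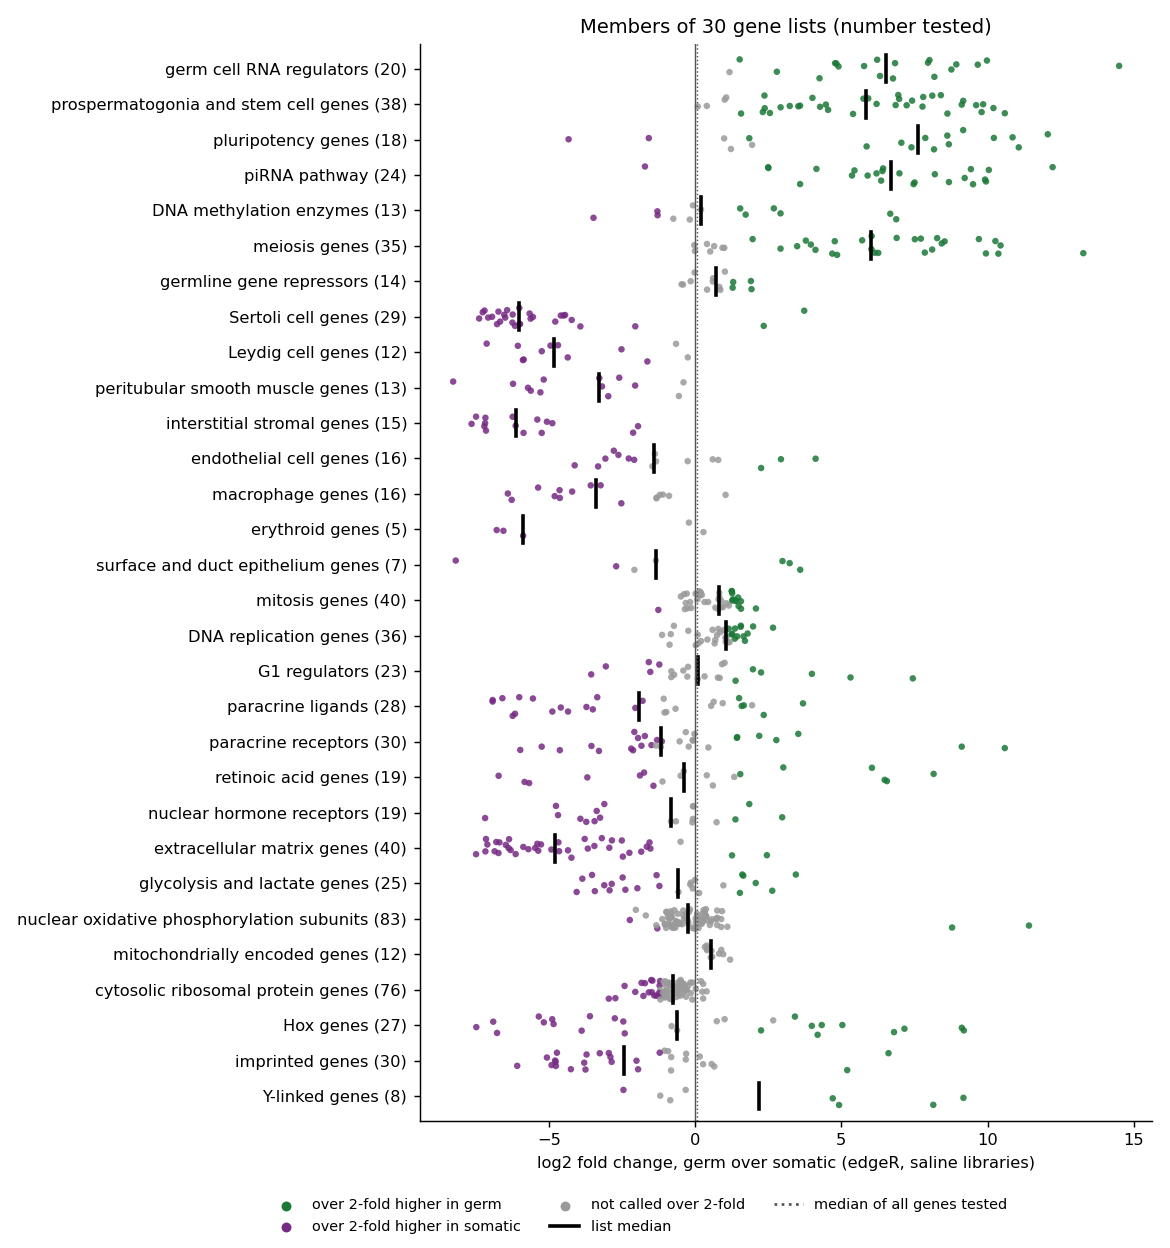
Log2 fold change (germ over somatic, edgeR) of the tested members of 30 gene lists, 1 point a gene, coloured by the 2-fold test, with a black bar at the median of each list and a dotted line at the median of all genes tested. The germ cell RNA regulator, stem cell, pluripotency, piRNA and meiosis lists have medians from 5.84 to 7.63, the Sertoli and stromal lists medians of −6.03 and −6.15, and the DNA methylation, G1 and oxidative phosphorylation lists medians within 0.3 of 0.

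On the somatic side, Sertoli cell genes were higher in somatic cells with few exceptions. All 29 were tested, 27 were over 2-fold higher in somatic cells and 2 over 2-fold higher in germ cells, with a median log2 fold change of −6.03. Inha, the alpha subunit of inhibin, stood at 7.84, 10.5 and 11.2 FPKM in germ cells against 819, 680 and 855 FPKM in somatic cells. The transcription factors Gata4 (160 ± 8.92 FPKM in somatic cells), Sox9 (47.8 ± 3.76 FPKM) and Wt1 (32.8 ± 1.91 FPKM) lay between 1.62 and 2.73 FPKM in germ cells. Fshr, the receptor of follicle-stimulating hormone, stood at 22.2 ± 1.36 FPKM in somatic cells and was 93.0-fold lower in germ cells. Clu, a secreted chaperone, and Aard stood at 573 ± 60.7 and 554 ± 14.6 FPKM. The members that went the other way were Rhox5, a homeobox gene that Sertoli cells switch on later (8.18 ± 3.38 FPKM in germ cells against 0.572 ± 0.313 FPKM), and Fgf9, the growth factor of early testis determination (1.02 ± 0.163 against 0.183 ± 0.0351 FPKM).

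The most abundant somatic transcript by the same rule was Gstm1, a glutathione transferase, at 1181 ± 164 FPKM against 16.9 ± 3.10 FPKM in germ cells, with 14.4% of its 64-base words found in other genes. Amh followed at 1000.2 ± 101 FPKM, then Inha at 785 ± 92.7 FPKM and Gstm2 at 746 ± 67.7 FPKM. Sparc, a matrix glycoprotein, stood at 702 ± 13 FPKM, the most even of these between libraries. Further down came Mfap4, a microfibril protein, at 499 ± 19.5 FPKM, Col1a1 at 465 ± 62.7 FPKM, S100a11, a calcium-binding protein, at 435 ± 53.8 FPKM and Cyr61, a matricellular protein of the immediate-early response, at 422 ± 46.2 FPKM. These 9 genes were between 42.4-fold and 148-fold lower in germ cells.

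Leydig cell genes, those of steroid synthesis and its regulation, were called in 1 direction. Of 15 genes 12 had enough counts, 10 were over 2-fold higher in somatic cells and none in germ cells, with a median log2 fold change of −4.83 (−4.56 with bounds, −2.02 on log2(FPKM + 1)). Among the steroidogenic enzymes, Cyp17a1 stood at 23.0, 11.7 and 16.4 FPKM in somatic cells and at 0.586 ± 0.170 FPKM in germ cells. Cyp11a1, which makes the first step from cholesterol, stood at 7.21, 2.70 and 5.24 FPKM, and Hsd3b1 at 29.0, 15.7 and 24.6 FPKM. Somatic replicate 2 was the lowest for these 3 enzymes. Star, which carries cholesterol into mitochondria, stood at 8.08 ± 0.878 FPKM against 1.52 ± 0.325 FPKM in germ cells. The smallest difference in the list was a log2 fold change of −0.26. Hsd17b3, the last enzyme of testosterone synthesis, which fetal testes are known to express in Sertoli cells, was the most abundant of the list at 214 ± 28.3 FPKM. Insl3, the descent hormone of Leydig cells, stood at 19.7 ± 4.32 FPKM, and 64.8% of its exonic bases are shared with Jak3 on the same strand.

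Peritubular and stromal genes were called higher in somatic cells where they were called. Of 13 peritubular smooth muscle genes 11 were over 2-fold higher in somatic cells, with a median log2 fold change of −3.29. Myh11, the smooth muscle myosin, stood at 35.1 ± 4.09 FPKM against 0.503 ± 0.168 FPKM, and Myl9, a myosin light chain, at 376 ± 18 against 7.76 ± 0.913 FPKM. Tagln, an actin-binding protein, was low in both, at 0.742 ± 0.191 and 0.997 ± 0.379 FPKM, and did not pass the test (adjusted p = 0.254). Of its exonic bases 67.9% are overlapped by a gene on the opposite strand, and how reads of overlapping genes were assigned is not given in the sources used here. All 15 interstitial stromal genes were over 2-fold higher in somatic cells, with a median of −6.15. Tcf21, a transcription factor of interstitial progenitors, stood at 61.6, 88.5 and 60.7 FPKM against at most 0.452 FPKM, a 202-fold difference. Nr2f2 (COUP-TFII), Dcn (decorin) and Pdgfra stood at 28.3 ± 2.39, 93.2 ± 13.2 and 69.6 ± 9.69 FPKM in somatic cells.

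Of 40 extracellular matrix genes 37 were over 2-fold higher in somatic cells, with a median log2 fold change of −4.81. Col4a1, a chain of basement membrane collagen, stood at 272 ± 33.9 against 9.76 ± 0.279 FPKM, Fn1 (fibronectin) at 102 ± 8.45 against 30.8 ± 4.32 FPKM, and Lama1, a laminin chain, at 24.5 ± 1.32 against 3.70 ± 0.335 FPKM. Fibronectin thus differed the least of these, 3.61-fold. The exceptions were also basement membrane genes. Lama5, another laminin chain, stood at 14.4, 16.7 and 12 FPKM in germ cells and at 2.51, 2.29 and 2.45 FPKM in somatic cells, and Nid2, which links laminin to collagen, at 55.1 ± 3.86 against 21.1 ± 4.52 FPKM.

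Endothelial and macrophage genes did not separate as cleanly as the Sertoli and stromal genes. Of 16 endothelial genes 7 were over 2-fold higher in somatic cells and 3 over 2-fold higher in germ cells. Cdh5, the cadherin of vessels, stood at 49.0 ± 3.76 against 5.33 ± 0.544 FPKM, while Flt1, a receptor of vascular growth factor, stood at 2.87, 2.79 and 3.52 FPKM in germ cells against 0.132, 0.106 and 0.251 FPKM in somatic cells, and Plvap, a protein of vessel fenestrae, at 7.22 ± 0.917 against 0.860 ± 0.220 FPKM. Pecam1, which germ cells are also known to express, was called at a log2 fold change of 0.60 without passing the 2-fold test. Of 16 macrophage genes 10 were over 2-fold higher in somatic cells and none in germ cells, all at low levels, with C1qa at 7.83, 5.56 and 11.3 FPKM and Csf1r at 1.75, 1.80 and 3.39 FPKM in somatic cells. Fcer1g, which immune receptors share, was the only macrophage gene called higher in germ cells, at 4.94 ± 0.921 against 2.20 ± 0.726 FPKM. Of 12 erythroid genes 5 had enough counts, and the globins Hba-a1 and Hbb-bs stood at 233 ± 65.0 and 104 ± 15.8 FPKM in somatic cells against 2.67 ± 0.589 and 1.02 ± 0.385 FPKM. Both share over 50% of their 64-base words with other globin genes. Alas2, a heme synthesis enzyme of erythroid cells, was at 2.25 ± 0.139 against 2.40 ± 0.169 FPKM and did not pass the test.

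In the surface and duct epithelium list, 7 of 8 genes had enough counts and 3 were over 2-fold higher in germ cells. These were the keratins Krt7, at 1.89 ± 0.345 against 0.184 ± 0.0440 FPKM, and Krt19, at 5.73 ± 0.722 against 0.681 ± 0.628 FPKM, and the transcription factor Pax8, at 2.00 ± 0.0735 against 0.152 ± 0.0422 FPKM. Cdh1, a cadherin of epithelia that was listed with the prospermatogonia genes, stood at 22.9, 32.6 and 22.9 FPKM in germ cells against 0.337, 0.724 and 0.233 FPKM in somatic cells. Upk3b, a mesothelial protein, was below 1.4 FPKM in every library, and Cdh16, a cadherin of ducts, had no count in germ cells. The other 4 genes tested were called higher in somatic cells, 2 of them over 2-fold: Cdh16 and Msln, mesothelin, the latter at 1.12 ± 0.905 FPKM against 0.181 ± 0.137 FPKM in germ cells. The list therefore had members on both sides, and its median of −1.35 did not keep its sign under all alternatives.

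Cell cycle genes lay on both sides. Of 40 mitosis genes 24 were called higher in germ cells and 7 in somatic cells, with a median log2 fold change of 0.79, and of 36 replication genes 27 were higher in germ cells and 5 in somatic cells, with a median of 1.04. Over all genes tested 39.8% were called higher in germ cells and 36.7% in somatic cells. The 2-fold test was passed towards germ cells by 12 mitosis and 13 replication genes, and towards somatic cells by 1 and 0. Its shares over all genes were 23.4% and 21.6%. Mcm2 and Mcm5, subunits of the replicative helicase, stood at 87.0 ± 1.25 and 101 ± 1.85 FPKM in germ cells against 27.2 ± 1.18 and 44.2 ± 3.84 FPKM. Ccnb1, the mitotic cyclin, stood at 62.2, 62.1 and 58.9 FPKM against 19 ± 1.25 FPKM in somatic cells, but Cdk1, the kinase it activates, went the other way, at 10.8, 12 and 11.0 FPKM against 23.8, 25 and 25.9 FPKM. Cdk1 was the one mitosis gene over 2-fold higher in somatic cells. Neither Mki67 (47.5 ± 4.01 against 39.0 ± 0.655 FPKM, adjusted p = 0.0942) nor Pcna (79.9 ± 3.36 against 72.7 ± 4.82 FPKM, adjusted p = 0.886) passed the test. Top2a, which untangles chromosomes, was called at a log2 fold change of 0.89 (SE 0.07).

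Of 23 G1 regulators, which decide on entry into the cycle, 6 were over 2-fold higher in germ cells and 5 in somatic cells. These numbers are near the shares over all genes tested, 23.4% and 21.6%, so the split is not particular to the list. Among the D cyclins, Ccnd1 stood at 34.8 ± 0.639 against 0.789 ± 0.307 FPKM (39.7-fold), Ccnd3 at 16.8 ± 2.07 against 36.3 ± 1.68 FPKM, and Ccnd2 at 51.5 ± 3.73 against 56.1 ± 7.27 FPKM without passing the test. The inhibitors also split. Cdkn2a, the locus of p16 and ARF, stood at 60.9, 62.3 and 73.0 FPKM in germ cells and at 0.123, 0.715 and 0.119 FPKM in somatic cells, 174-fold lower. Cdkn2b (p15) and Cdkn1a (p21) were also higher in germ cells, at 4.94 ± 2.08 against 0.288 ± 0.231 FPKM and at 7.33 ± 2.61 against 1.71 ± 0.211 FPKM. Cdkn1b (p27) was higher in somatic cells, at 6.64 ± 1.24 against 18.4 ± 1.34 FPKM, and so was Cdkn2c (p18), at 2.34 ± 0.341 against 25.4 ± 2.52 FPKM. Of the pocket proteins that restrain E2F factors, Rb1 stood at 22.2 ± 1.27 in germ cells against 4.29 ± 0.151 FPKM, and Rbl2 at 0.647 ± 0.0509 against 4.96 ± 0.735 FPKM.

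**Figure D3:**
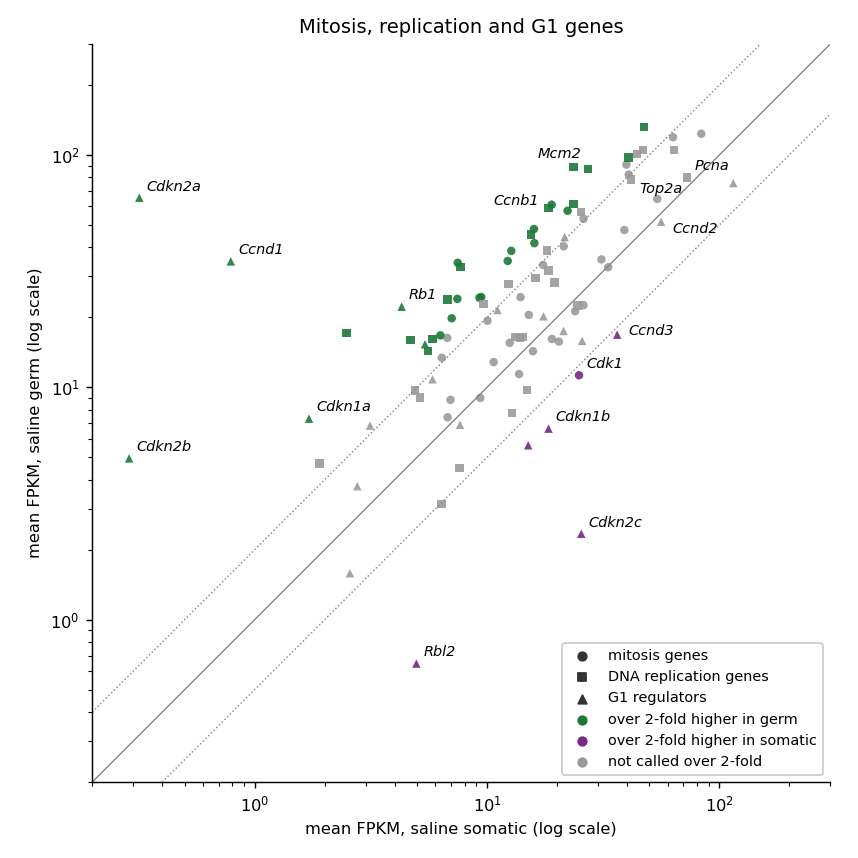
Mean FPKM (n = 3) in saline germ cells against mean FPKM in saline somatic cells, both on log scales, for mitosis genes (circles), DNA replication genes (squares) and G1 regulators (triangles), coloured by the 2-fold test, with a solid line at equal levels and dotted lines at a 2-fold difference. Cdk1 is the only purple circle, and Cdkn2a and Ccnd1 lie far above the lines at 65.4 and 34.8 FPKM in germ cells.

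Growth factors and their receptors lay on opposite sides in several known pairs. Of 28 paracrine ligands tested 15 were over 2-fold higher in somatic cells and 5 in germ cells, against 21.6% and 23.4% of all genes tested. The median log2 fold change of the ligands was −1.93. Gdnf stood at 23.1, 23.0 and 25.4 FPKM in somatic cells and at 0.277, 0.447 and 0.479 FPKM in germ cells, the reverse of its receptors Gfra1 and Ret. Kitl, the ligand of KIT, stood at 15.2, 21.1 and 18 FPKM in somatic cells and at 0.794, 0.960 and 0.687 FPKM in germ cells. Cxcl12, a chemokine that guides germ cells, stood at 40.0 ± 4.17 against 0.353 ± 0.0508 FPKM, and its receptor Cxcr4 at 3.22 ± 0.481 in somatic cells against 9.47 ± 0.831 FPKM in germ cells. Dhh, the hedgehog signal of Sertoli cells, was 72.1-fold higher in somatic cells, and its receptor Ptch1 was on the same side, at 32.3 ± 1.92 against 9.04 ± 0.604 FPKM. Pdgfa and Pdgfra were likewise both higher in somatic cells, and 26.1% of the exonic bases of Pdgfa and 25.2% of those of Dhh are overlapped by genes on the opposite strand.

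Ligands over 2-fold higher in germ cells were Fst (follistatin), which binds activin, at 5.38 ± 1.34 against 0.385 ± 0.148 FPKM, Tgfb1 at 22.9 ± 4.55 against 7.01 ± 0.763 FPKM, Pdgfb at 25.7 ± 1.47 against 7.46 ± 0.583 FPKM, Nrtn (neurturin), a relative of GDNF, at 13.6 ± 1.93 against 4.40 ± 0.117 FPKM, and Fgf9. Against follistatin, the activin subunit gene Inhba stood at 0.276 ± 0.180 FPKM in germ cells and at 30.6 ± 3.91 FPKM in somatic cells. Of 30 receptors 14 were over 2-fold higher in somatic cells and 7 in germ cells, against 21.6% and 23.4% of all genes tested. The number on the germ side is near the share over all genes, so it is not particular to the list. Acvr2b, an activin receptor, stood at 16.4 ± 1.68 FPKM in germ cells against 2.21 ± 0.386 FPKM, while Tgfbr2, a receptor of TGF-beta, stood at 1.04 ± 0.161 against 9.39 ± 1.53 FPKM. Of the receptors of fibroblast growth factors, Fgfr1 was 2.48-fold higher in somatic cells and Fgfr3 2.68-fold higher in germ cells. Amhr2, the receptor of anti-Müllerian hormone, stood at 106 ± 16.7 FPKM in somatic cells, 63.6-fold above germ cells. Igf2 and its clearance receptor Igf2r were called higher in somatic cells by under 2.1-fold, and 64.5% of the exonic bases of Igf2 lie in another annotated gene on the same strand.

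**Figure D4:**
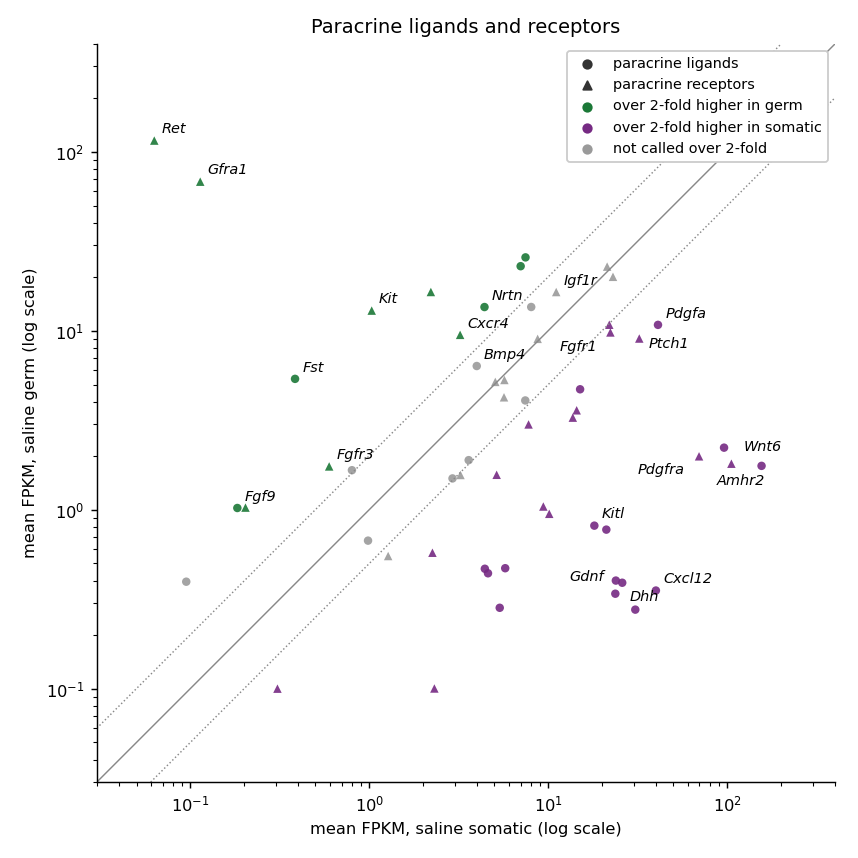
Mean FPKM (n = 3) in saline germ cells against mean FPKM in saline somatic cells, both on log scales, for paracrine ligands (circles) and receptors (triangles), coloured by the 2-fold test, with a solid line at equal levels and dotted lines at a 2-fold difference. The ligands Gdnf and Kitl lie on the somatic side at 23.9 and 18.1 FPKM, and the receptors Gfra1, Ret and Kit lie on the germ side at 68.0, 115 and 12.9 FPKM.

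Retinoic acid genes went in both directions, with 6 of 19 over 2-fold higher in germ cells and 7 over 2-fold higher in somatic cells. The shares over all genes tested were 23.4% and 21.6%. Of the enzymes that make retinoic acid, Aldh1a1 stood at 218 ± 6.26 FPKM in somatic cells against 2.24 ± 0.488 FPKM, and Aldh1a2 was called at only 1.42-fold higher there. Of the enzymes that break it down, Cyp26b1 was on the somatic side at 41.5 ± 5.89 against 0.874 ± 0.140 FPKM, whereas Cyp26a1, at 5.24, 5.14 and 6.73 FPKM, was 66.0-fold higher in germ cells. The importer Stra6 was higher in somatic cells, at 23.2 ± 0.534 FPKM. Crabp1, which binds retinoic acid in the cytosol, stood at 88.8, 86.7 and 88.6 FPKM in germ cells and at 0.661, 0.895 and 0.982 FPKM in somatic cells. Of the receptors, Rarg was called at 1.31-fold higher in germ cells, and Rara stood at 12.2 ± 0.656 FPKM in germ cells against 37.8 ± 0.620 FPKM.

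Of 19 other nuclear hormone receptors tested, 9 were over 2-fold higher in somatic cells and 3 in germ cells. Esr1, an estrogen receptor, was low in germ cells, at 0.107 ± 0.0182 FPKM, and stood at 2.55 ± 0.204 FPKM in somatic cells. Thra, a thyroid hormone receptor, stood at 98.8 ± 1.61 FPKM in somatic cells and 3.95 ± 0.823 FPKM in germ cells. Nr4a1, an immediate-early receptor without a known hormone, stood at 237 ± 18.8 against 24.9 ± 0.884 FPKM. Nr6a1, the germ cell nuclear factor, was 7.85-fold higher in germ cells. Of the corticosteroid receptors, Nr3c1, the glucocorticoid receptor, stood at 12.4, 13.4 and 13.4 FPKM in germ cells and at 4.01, 5.62 and 4.19 FPKM in somatic cells, with no overlap. Nr3c2, the mineralocorticoid receptor, was at 0.309 ± 0.0329 and 0.300 ± 0.0460 FPKM, a difference that did not pass the test (log2 fold change −0.08, SE 0.36, adjusted p = 0.844).

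Genes of energy metabolism showed small shifts with a few large ones. Of 25 glycolysis and lactate genes 12 were over 2-fold higher in somatic cells and 6 in germ cells, with a median log2 fold change of −0.58. Tpi1 stood at 7.40 ± 1.19 FPKM in germ cells against 73.6 ± 5.34 FPKM and Ldha was 3.95-fold higher in somatic cells, where it stood at 67.2 ± 2.96 FPKM. On the germ side were Gpi1 at 73.6 ± 4.02 against 23.5 ± 1.28 FPKM, the glucose transporter Slc2a3 at 10.8 ± 0.812 against 3.17 ± 0.487 FPKM and the lactate importer Slc16a1 at 29.4 ± 3.05 against 8.86 ± 1.12 FPKM. Slc16a3, a lactate exporter, was 16.7-fold higher in somatic cells. Gapdh, the usual reference gene, was listed at 1.24 ± 0.211 and 9.97 ± 7.88 FPKM, and 23.5% of its 64-base words occur in other genes, as do 53.3% of those of Pgk1, so their levels are uncertain. Slc2a1 and Hk1 did not pass the test.

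Of 83 nuclear subunits of oxidative phosphorylation 26 were called higher in germ cells and 40 in somatic cells, but only 2 passed the 2-fold test in each direction. Those on the germ side were the testis isoforms Cox7b2, at 27.4, 31.1 and 33.5 FPKM with no somatic count and at least 119-fold higher, and Cox8c, at 21.4 ± 3.00 FPKM and at least 70.1-fold higher. Of 12 genes of the mitochondrial genome 10 were called higher in germ cells, none over 2-fold, with a median log2 fold change of 0.54. The groups did not overlap for 5 of the 12, against 79.7% of all genes tested. Mitochondrial genes took 2.85%, 2.59% and 1.86% of the counts in saline germ replicates 1, 2 and 3. In saline somatic libraries they took 1.56% to 1.79%. A median of 44.7% of the 64-base words of the mitochondrial genes occur in other genes, so their levels are uncertain. Of 76 cytosolic ribosomal protein genes 63 were called higher in somatic cells and 1, Rpsa, higher in germ cells, with a median of −0.78. Over all genes tested 36.7% and 39.8% were called. The X-linked members Rps4x, at 89.3 ± 13.3 against 638 ± 18.2 FPKM, Rpl39 and Rpl10, at 84.8 ± 2.75 against 417 ± 11.6 FPKM, were among the 17 over 2-fold higher in somatic cells, and Rpl10l, described above, was the reverse of Rpl10. That number, 17 of 76, is near the share over all genes tested, 21.6%. A median of 18.6% of the 64-base words of the ribosomal genes occur in other genes, such as processed copies.

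Transcription factor families, grouped after their values were seen, differed in direction. Of 148 homeobox genes tested 91 (61.5%) were over 2-fold higher in germ cells and 32 (21.6%) in somatic cells, against 23.4% and 21.6% of all genes. The germ-higher homeobox transcripts were mostly scarce, with a median of 1.81 FPKM, 12 of them at 10 FPKM or more, and 53 with at most 3 counts in every somatic library. Those 53 passed the count filter only through the germ libraries, so they could be called only towards germ cells. All Rhox genes described below except Rhox5 are counted in this family. Lhx1 stood at 25.4 ± 3.05 FPKM and Dlx3 at 22.2 ± 1.67 FPKM in germ cells, against 0.0984 ± 0.109 and 0.0308 ± 0.0534 FPKM in somatic cells. Forkhead genes lay the same way, with 16 of 33 (48.5%) over 2-fold higher in germ cells and 3 (9.09%) in somatic cells. Among the 16 was Foxf1, at 34.4 ± 5.32 against 0.202 ± 0.0116 FPKM, and 7 had at most 3 counts in every somatic library. The bZIP family lay the other way, with 25 of 45 (55.6%) over 2-fold higher in somatic cells and 3 (6.67%) in germ cells. Its immediate-early members Fos, Jun, Junb and Fosb stood at 362 ± 82.3, 231 ± 45.6, 207 ± 58.1 and 198 ± 57.3 FPKM in somatic cells, and at 35.3 ± 14.3, 14.5 ± 3.50, 8.87 ± 2.77 and 5.25 ± 1.75 FPKM in germ cells. Members of this group are known to be induced quickly by growth factors and by stress.

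The Hox clusters, which set position along the body axis, differed from each other. In cluster B 7 of 9 genes tested were over 2-fold higher in germ cells and 1 in somatic cells, with Hoxb4 at 7.27, 6.38 and 7.26 FPKM in germ cells against 0.376, 0.435 and 0.126 FPKM. In clusters C and D 5 of 7 each were over 2-fold higher in somatic cells and 1 of 7 each in germ cells, with Hoxd9 at 76.3, 58.9 and 60.2 FPKM in somatic cells against 0.871, 0.323 and 0.687 FPKM. Hoxd8 stood at 31.5 ± 2.75 against 0.945 ± 0.170 FPKM. Across all 27 Hox genes tested the numbers were 10 over 2-fold higher in germ cells and 12 in somatic cells, against 23.4% and 21.6% of all genes tested.

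**Figure D5:**
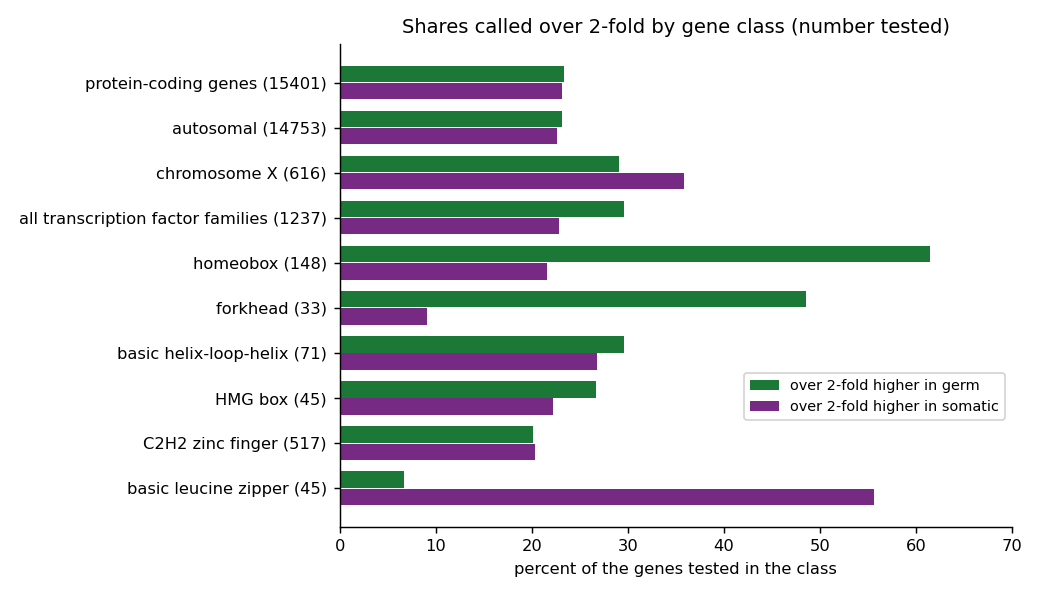
Percent of the protein-coding genes tested in each class that were over 2-fold higher in germ cells (green) or in somatic cells (purple), with all protein-coding genes at the top and the number tested in brackets. Homeobox (61.5%) and forkhead (48.5%) genes have the longer bar on the germ side, and basic leucine zipper genes (55.6%) and X-linked genes (35.9%) on the somatic side.

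On the X chromosome genes lay on both sides. Of 616 X-linked protein-coding genes tested 179 (29.1%) were over 2-fold higher in germ cells and 221 (35.9%) in somatic cells, against 23.1% and 22.6% of the autosomal genes, and 76 of the germ-higher genes had at most 3 counts in every somatic library. Multi-copy families on the X were also chosen after their values were seen. Over 2-fold higher in germ cells were 19 of 21 Rhox genes, 10 of 10 Xlr genes and 5 of 5 Fthl17 genes, against 23.4% of all genes tested. Of these, 14 Rhox, 3 Xlr and 4 Fthl17 genes had at most 3 counts in every somatic library. Such genes passed the count filter only through the germ libraries, so they could be called only towards germ cells. Reads of the copies cannot be split with certainty. The Mage genes, also chosen after their values were seen, lay on both sides. Those tested were X-linked except Mageb3 on chromosome 2, higher in germ cells, and Magel2 on chromosome 7, higher in somatic cells. Of 19 Mage genes tested, 12 were over 2-fold higher in germ cells (63.2%) and 5 in somatic cells (26.3%). Among those 12, 8 had at most 3 counts in every somatic library. On the somatic side Maged1 stood at 445 ± 18.6 against 92.9 ± 1.37 FPKM in germ cells and Maged2 at 159 ± 9.69 against 10.1 ± 0.668 FPKM. Rhox8, known from Sertoli cells, was the Rhox gene over 2-fold higher in somatic cells, at 209 ± 53.1 against 1.32 ± 0.288 FPKM. Of 8 Y-linked genes tested 4 were over 2-fold higher in germ cells and 1 in somatic cells, against 23.4% and 21.6% of all genes tested. Usp9y, a deubiquitinase, stood at 8.73 ± 1.17 FPKM in germ cells against 0.0294 ± 0.0298 FPKM, and Uba1y, a ubiquitin-activating enzyme, at 60.5 ± 0.600 against 1.81 ± 0.505 FPKM. Ddx3y, an RNA helicase, was 5.50-fold higher in somatic cells, while Kdm5d, Uty and Eif2s3y were called higher there without passing the 2-fold test.

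Imprinted genes were mostly higher in somatic cells. Of 30 tested 18 were over 2-fold higher there and 2 in germ cells, with a median log2 fold change of −2.44. Dlk1, a growth regulator, stood at 413, 360 and 397 FPKM in somatic cells and at 12.2, 10.7 and 14.7 FPKM in germ cells, and Peg3 at 40.0 ± 4.29 against 6.0 ± 0.416 FPKM. Mest was 2.33-fold and Peg10 1.91-fold higher in somatic cells. Snrpn, at 4.74 ± 0.890 and 5.41 ± 0.606 FPKM, did not pass the test, and 34.1% of its exonic bases are shared with another gene. The germ-higher members were Phlda2, at 3.56, 2.36 and 4.06 FPKM and at least 26.6-fold higher, and Ascl2, at 6.09 ± 0.509 FPKM against 0.158 ± 0.274 FPKM.

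Long noncoding RNAs were found on both sides. Of 722 lincRNAs tested 39.6% were over 2-fold higher in germ cells and 18.6% in somatic cells, against 23.4% and 21.6% of all genes. Of the 286 germ-higher lincRNAs, 190 had at most 3 counts in every somatic library. Of the 134 somatic-higher ones, 29 had at most 3 counts in every germ library. Genes at this floor passed the count filter only through the higher population. The imprinted transcripts H19 and Meg3 stood at 729 ± 79.2 and 78.2 ± 18.8 FPKM in somatic cells against 58.7 ± 9.15 and 1.24 ± 0.124 FPKM in germ cells. Malat1, a nuclear RNA, stood at 96.6, 61.8 and 103 FPKM in somatic cells and at 13.4 ± 3.14 FPKM in germ cells. The highest germ-higher entry by level was Cct6a, at 118 ± 5.28 against 49.3 ± 2.02 FPKM, a 2.19-fold difference. It is a chaperonin gene that entered only by its annotation as a processed transcript, so its reads cannot be called noncoding. The next by level were 1700018B24Rik, Gm12319, 1700054O05Rik and Gm48168. Of these 1700018B24Rik stood at 38.8, 43.5 and 37.8 FPKM and was at least 169-fold higher in germ cells, and 1700054O05Rik at 23.9, 23.9 and 22.1 FPKM and at least 92.4-fold higher. Gm48168 varied between 15.3 and 34.4 FPKM, and 34.2% of its 64-base words occur in other genes.

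Whether the difference between the populations in saline was the same in dex-treated animals was tested over all 12 libraries. Of 20551 genes tested 170 (0.827%) passed, 85 in each direction, and 2730 had an unadjusted p under 0.05. The number that passed was 648 by DESeq2, 90 with the replicate number as a block and 57 on log2(FPKM + 0.1). It was 81, 98 and 107 without saline germ replicate 1, 2 or 3, 79 without saline somatic replicate 3, 87 and 110 without dex germ replicate 1 or 3, and 94 and 104 without dex somatic replicate 2 or 3. Of the genes over 2-fold different in saline, 8499 entered this test, and 115 of them passed it. The difference kept its sign in dex for 8483 of the 8499. Among the named genes, 12 passed, and Zbtb16 was the one with the largest change, with 342 CPM in germ and 1.19 CPM in somatic libraries after saline and 299 and 18.7 CPM after dex (adjusted p = 1.47e-05). It remained higher in germ cells under both treatments. No gene of the piRNA pathway passed, with a lowest adjusted p of 0.0721 in that list. Only 0.827% of all genes passed, so the absence of a call is not particular to the list.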

How the data were processed

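RNA was measured in 12 libraries of sorted newborn testis cells, grouped by their labels, and 6 of them (saline germ 1 to 3, saline somatic 1 to 3) entered the comparison. Per the labels and the study, mRNA was selected on poly-dT beads, copied with random hexamers and sequenced as paired ends. The submitters' processing notes name mm10, HISAT2 2.0.5, featureCounts 1.5.0-p3 and DESeq2 1.20.0. The annotation release and the strand setting are not given in the sources used here. The deposited counts are the authors' raw reads per gene without normalization, and the deposited FPKM are the authors' values per gene length and library. The authors' tables of dex against saline hold log2 fold changes and p-values of their DESeq2 fits and were not used.

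The counts were fitted in R 4.3.3 with edgeR 4.0.16, using TMM scaling, filterByExpr at a minimum count of 10 and the two-sided quasi-likelihood test, with Benjamini-Hochberg adjustment over all genes tested and a threshold of 0.05. A second test on the same fit was against a fold change of 2 (glmTreat). The biological coefficient of variation was 15.2%. SE was derived from the log2 fold change and the F statistic of its test. The change of the population difference between saline and dex was a contrast over all 12 libraries. The tests were tried on simulated counts with known changes. Where one population had at most 3 counts in every library, the fold is a lower bound against 3 counts in each library. Since replicates are pools, p-values measure the spread between pools.

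Gene lists came from general knowledge, and members and lists were chosen with earlier results of these data known. Lists were described by counts and medians, with no set test. Named genes were those marked in the lists, the 12 protein-coding genes of highest FPKM in each direction with a log2 fold change of at least 5 in size, the 5 long noncoding RNAs of highest FPKM in each direction, and, for the change with dex, those of the first 2 kinds that passed. Other list members and all gene classes were named after their values were seen. Overlap with other genes and shared 64-base words were computed from GENCODE M21 (GRCm38). Promoter windows came from RefSeq, matched for 12100 of 15397 protein-coding symbols (78.6%), so no GC comparison was made. Promoters were searched on both strands for CACGTG (bound by MYC and MAX proteins), GGCGGGA (by E2F), TCAAGGTCA (by SF-1), AGATAA (by GATA factors), TGANTCA (by AP-1), TGACGTCA (by CREB) and the serum response element, and only the first is reported. Alternatives were DESeq2 1.42.0, its size factors, library totals, no filter, 10 counts in every library, limma-trend (limma 3.58.1) on log2(FPKM + 0.1) and log2(FPKM + 1), a replicate block and leaving out each library.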

Additional observations from a re-analysis of the deposited data

Results flagged for a closer look

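The contrast between germ and somatic cells in saline differed from that in dex by the test over all 12 libraries for 12 of the genes named above. Each value is the log2 fold change in saline minus that in dex, with n = 3 libraries a group and the adjusted p of edgeR. Zbtb16 differed by 4.11 (adjusted p = 1.47e-05), with 18.7 CPM in dex somatic cells against 1.19 CPM in saline somatic cells.

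In 4 genes higher in somatic cells the level in dex somatic cells was the higher one. H19 differed by 1.24 (1914 CPM in saline and 4476 CPM in dex somatic cells, adjusted p = 0.00527), Cdkn1c by 0.97 (56.0 and 115 CPM, adjusted p = 0.0315), Col1a1 by 0.87 (3261 and 5613 CPM, adjusted p = 0.0282) and Dlk1 by 0.79 (2351 and 4202 CPM, adjusted p = 0.0306).

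In another 4 the low level in germ cells was lower in dex. Fshr differed by 3.25 (0.525 CPM in saline and 0.0465 CPM in dex germ cells, adjusted p = 0.0385), S100a11 by 1.72 (2.62 and 1.07 CPM, adjusted p = 0.00648), Gstm2 by 1.33 (12.3 and 4.45 CPM, adjusted p = 0.0104) and Sparc by 0.61 (26.7 and 19.5 CPM, adjusted p = 0.0149). The Fshr level in dex germ cells lies under the limit that a count of 0 allows, while the saline germ libraries stood at 0.569, 0.625 and 0.381 CPM, so its difference is a fitted value that depends on the prior count and is no bound.

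Another 3 genes, higher in germ cells, had a smaller contrast in saline than in dex. Ddx4 differed by −1.28 (1.38 CPM in saline and 0.605 CPM in dex somatic cells, adjusted p = 0.0462), Elavl2 by −1.01 (3.41 and 1.77 CPM, adjusted p = 0.0412) and Pecam1 by −1.05 (15.8 and 9.53 CPM, adjusted p = 0.0496).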

How the results depend on the processing

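The number of genes called, 14441, lay between 10805 and 16347 over all alternatives and between 13964 and 14851 with 1 library left out. The over 2-fold count of 8500 lay between 8257 and 8960 with 1 library left out, and was 5099 with 10 counts in every library, where fewer genes are tested, and 4862 on log2(FPKM + 1). The germ share of calls was 52.0%, and 50.3% to 55.8% over the other alternatives except 48.7% with 10 counts in every library. The number of genes whose contrast differed between saline and dex, 170, was 706 with no filter, 262 with 10 counts in every library, 648 by DESeq2, 57 on log2(FPKM + 0.1) and 90 with the replicate block. It lay between 79 (without saline somatic replicate 3) and 172 (without dex somatic replicate 1). The cause of these changes was not tested. Of the replicate pairing, the correlation of deviations between same-numbered saline libraries was 0.0449 to 0.0517, each the highest for its library as a hint from the data, and it was −0.0165 to 0.00373 in dex, so the numbers were taken as names only. With the replicate block 14157 genes were called and 8251 over 2-fold.

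The median log2 fold change changed sign with 10 counts in every library for DNA methylation enzymes (−0.02), G1 regulators (−0.19), Y-linked genes (−0.80), pluripotency genes (−0.13) and surface and duct epithelium genes (3.47), and without saline somatic replicate 2 for Hox genes (0.54). Over the 30 lists, the median moved by over 1.5 times or turned for 18 on log2(FPKM + 1), which understates low genes, for 11 with 10 counts in every library, and for 4 or fewer under each other alternative. On log2(FPKM + 1) it was 3.80 for RNA regulators, 3.74 for prospermatogonia, 2.21 for pluripotency, 4.27 for piRNA, 2.96 for meiosis, −2.02 for Leydig, −0.51 for endothelial, −0.93 for macrophage, −3.28 for erythroid, −0.45 for receptor, −1.56 for imprinted, 0.44 for Y-linked and −0.13 for Hox genes. With 10 counts in every library it was 3.61 for prospermatogonia, 2.02 for meiosis and −1.17 for macrophage genes.

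Among the named genes 2138 values kept their direction and side of the threshold, 22 lost the call, 22 gained it and 23 changed sign. Bmp4, Eif2s3y, Rarg and Upk3b lost the call and Ccnd2, Dnmt3a, Hk1 and Mki67 gained it under at least 1 alternative. The sign changed for 4 genes, all near 0. Nr3c2 was at 0.0133 with DESeq2 size factors, 0.0554 with library totals, 0.01335 by DESeq2, 0.0361 and 0.0105 on log2(FPKM + 0.1) and log2(FPKM + 1), and lay between −0.241 and 0.0565 with 1 library left out, the latter without saline somatic replicate 2. Prdm9 was, in the same order, at 0.0866, 0.129, 0.0868, 0.129 and 0.0575, and at 0.0292 with no filter, 0.0463 with 10 counts in every library, 0.0220 with the replicate block and 0.0179 without saline germ replicate 1, and lay between −0.16 and 0.255 (without saline somatic replicate 2) with 1 library left out. Slc2a1 was at 0.0023 with DESeq2 size factors, 0.0420 with library totals, 0.00244 by DESeq2 and 0.0340 and 0.0313 on the FPKM scales. Pcna was at −0.0206 without saline germ replicate 3 and between −0.0945 (without saline somatic replicate 1) and 0.0634 over all libraries left out.

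Depth limits the genes near the floor, where folds are bounds, and genes that share exons or words with others have uncertain levels. With 3 pools a group, an uncalled gene is not shown to be equal.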
